A study of Mus musculus with 4 samples.

Results

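The 9 genes Ms4a1, Cd22, Cd72, Bank1, Cr2, Fcmr, Fcer2a, Tnfrsf13c and Cd40 encode proteins of maturing B cells. The genes were followed in single bone marrow cells of mice, grouped by the immunoglobulin chains listed for each cell. They were chosen by symbol from the 32285 genes of the deposited matrices, and each symbol stood on 1 row. Of the 9, 8 encode surface proteins. Bank1 encodes an adaptor inside the cell, so the name surface receptor does not cover it.

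The cells came from bone marrow 10 weeks after transplantation, were sorted on the leukocyte antigen CD45.2, and were profiled with a 10x Genomics 5′ kit together with assembled immunoglobulin contigs. The main libraries were Mll3/4 deleted Kit+ cells, in which Kit marks stem and progenitor cells, and control B220lo cells, in which a low level of B220 marks the B lineage. Mll3 and Mll4 are the histone methyltransferases encoded by Kmt2c and Kmt2d. Control Kit+ cells and Mll3/4SI Kit+ cells, whose abbreviation the labels do not expand, made up the remaining libraries. There was 1 library per group, so no difference was tested, and every interval below is a 95% interval that covers counting error only. The labels name neither the deleting Cre or promoter, nor the strain, nor the number of mice in a library. Genotype and sort gate differed together between the deleted and the B220lo cells, so their parts in a difference cannot be told apart.

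After filtering, 13747 deleted and 15380 B220lo cells were kept, with a median of 6507 and 3246 UMIs (unique molecular identifiers, each standing for 1 captured transcript). Over all barcodes, before filtering, Kmt2c and Kmt2d were still counted in the deleted library, at 51.6 and 19.97 CPM. CPM is a gene's UMIs relative to all UMIs of its group, on the usual CPM scale. The control Kit+ library had 58.5 and 24.1 CPM, and the B220lo library 146.6 and 41.7 CPM. A 5′ count need not cover a deleted stretch. Ddx3y, Eif2s3y, Uty and Kdm5d, which lie on the Y chromosome, summed over the same barcodes to 149 CPM in the deleted library and to no more than 0.515 CPM in any other library, so the sex of the animals differed too. The deleted and B220lo libraries shared 345 cell barcodes, close to the 345.1 that random draws from the kit's barcodes give, and 0 of them carried the same heavy chain.

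A B cell first rearranges its heavy chain gene, then a kappa or lambda light chain gene, and the finished receptor allows it to leave the marrow. Co-receptors that tune this receptor, and receptors for survival and T-cell help, are known to appear along that path. Each cell was placed in a contig state by the chains listed for it. A chain can be present but not listed, so a cell without a contig need not precede rearrangement. In the B220lo library 4868 cells had B-lineage transcripts but no contig, 1731 had a heavy chain only (IGH), 5358 had heavy and kappa chains (IGH plus IGK) and 1110 had heavy and lambda chains (IGH plus IGL). In the deleted library these states held 10215, 2995, 16 and 4 cells. B-lineage transcripts means UMIs of at least 2 of 6 lineage markers, among them Cd79a, Cd79b, Ebf1, Vpreb3 and Pax5. These markers summed to between 7060 and 10011 CPM in the 4 B220lo states and to 8282 and 8672 CPM in the deleted cells without contig and with IGH only. The no-contig groups were chosen by these same markers. A sum does not show each marker. Cd79b stood at 366 CPM in deleted and 872 CPM in B220lo cells without a contig, and at 372 and 1257 CPM with IGH only. The other markers are not given singly here.

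The stretch upstream of a gene's start is shown for 3 members that take different courses below: Bank1 and Cr2, which were not called lower in deleted than in B220lo cells, and Tnfrsf13c, which was. RefSeq windows on GRCm38.p6 were matched for 7 of the 9 members, and Ms4a1 and Cd40 were the others. Each sequence is the 250 bases before the start, read 5′ to 3′ on the gene's strand, and all 3 genes lie on the minus strand. The windows are chr3:136326067-136326316 for Bank1, chr1:195176720-195176969 for Cr2 and chr15:82224381-82224630 for Tnfrsf13c. Capitals mark the E-box CAGGTG or its reverse complement.
Bank1: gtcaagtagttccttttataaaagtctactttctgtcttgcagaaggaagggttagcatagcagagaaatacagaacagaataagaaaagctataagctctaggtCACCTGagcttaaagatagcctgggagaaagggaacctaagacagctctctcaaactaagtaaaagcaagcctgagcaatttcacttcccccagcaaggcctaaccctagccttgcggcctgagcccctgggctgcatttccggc
Cr2: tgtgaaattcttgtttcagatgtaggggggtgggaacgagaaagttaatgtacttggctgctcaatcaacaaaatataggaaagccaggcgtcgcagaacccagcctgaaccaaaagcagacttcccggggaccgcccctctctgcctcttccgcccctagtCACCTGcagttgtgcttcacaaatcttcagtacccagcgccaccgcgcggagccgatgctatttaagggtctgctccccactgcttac
Tnfrsf13c: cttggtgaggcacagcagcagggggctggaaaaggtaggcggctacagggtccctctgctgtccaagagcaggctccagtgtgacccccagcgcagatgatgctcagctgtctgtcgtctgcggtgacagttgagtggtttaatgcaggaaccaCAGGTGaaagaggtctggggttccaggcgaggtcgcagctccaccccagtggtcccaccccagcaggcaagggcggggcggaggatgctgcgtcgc
The match lies 145 bases upstream of the start in Bank1, 88 in Cr2 and 96 in Tnfrsf13c. CAGGTG was found on either strand in 17.2% of 32851 windows of this length, so such matches are common. The other motifs searched, on both strands, were an EBF motif, the octamer ATGCAAAT, GAGGAA for PU.1 and a kappa B motif, held by 0.779%, 1.60%, 23.3% and 1.21% of windows. The Cd22 window held an EBF match 49 bases and an E-box 245 bases upstream of its RefSeq start, which lies inside the longer gene span of the GENCODE annotation. The Fcmr and Cd72 windows each held a PU.1 match, 36 and 47 bases upstream. Of the 3 Fcer2a windows, 1 held E-box matches 244 and 99 bases upstream, and the others held none of the motifs. A match is a description of letters and not a shown binding site.

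Ms4a1 encodes CD20, a membrane protein of B cells. It was counted in B220lo cells at 89.7 CPM (86.0 to 93.6) without a contig, 44.5 CPM (40.5 to 48.9) with IGH only, 598 CPM (588 to 607) with IGH plus IGK and 522 CPM (502 to 542) with IGH plus IGL. The light-chain states were both far above the others, and IGH only was the lowest. The ratio of IGH plus IGK to IGH only was 13.4 (12.2 to 14.8). The gene lies on chromosome 19 from 11249675 to 11266241 on the minus strand of GRCm38, as do the other positions here from GENCODE.

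The inhibitory co-receptors took a flatter course. CD22, a lectin that binds sialic acid and dampens the antigen receptor, is encoded on chromosome 7 from 30865402 to 30880342. Cd22 was counted at 36.0 CPM without a contig, 60.2 with IGH only, 96.2 with IGH plus IGK and 88.6 with IGH plus IGL. Cd72, encoded on chromosome 4 from 43446462 to 43454628, is the other inhibitory co-receptor. Its level was 283 CPM without a contig, 393 with IGH only, 643 with IGH plus IGK and 502 with IGH plus IGL. Both were thus higher with IGH only than without a contig, by ratios of 1.67 (1.505 to 1.86) for Cd22 and 1.39 (1.34 to 1.44) for Cd72. The further ratio of IGH plus IGK to IGH only was 1.60 (1.46 to 1.75) for Cd22 and 1.64 (1.58 to 1.69) for Cd72.

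Bank1 and Cr2 bear on signals from the antigen receptor. The Bank1 adaptor is phosphorylated after receptor engagement, and Cr2 encodes CD21, a complement receptor that works in a complex with CD81. Bank1 lies on chromosome 3 from 136053363 to 136326066 and Cr2 on chromosome 1 from 195136811 to 195176716. Bank1 was counted in B220lo cells at 71.3 CPM without a contig, 36.6 with IGH only, 191 with IGH plus IGK and 194 with IGH plus IGL. Its IGH plus IGK to IGH ratio was 5.22 (4.70 to 5.82). Cr2 was scarce, at 3.37 CPM (82 UMIs), 1.78 CPM (18 UMIs), 11.1 CPM (279 UMIs) and 8.03 CPM (39 UMIs) in the same order. Its ratio was 6.25 (3.88 to 10.7), and like Bank1 it was lowest with IGH only.

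Both Fc receptors were highest with IGH plus IGK. Fcmr encodes the receptor for IgM and lies on chromosome 1 from 130865669 to 130880791. It was counted at 49.8 CPM without a contig, 46.2 with IGH only, 241 with IGH plus IGK and 175 with IGH plus IGL. Fcer2a encodes CD23, the low-affinity receptor for IgE, and lies on chromosome 8 from 3681737 to 3694175. It had 61 UMIs without a contig, 5 with IGH only, 322 with IGH plus IGK and 34 with IGH plus IGL, that is 2.51, 0.494, 12.8 and 7.002 CPM. The ratio of IGH plus IGK to IGH only was 5.20 (4.74 to 5.73) for Fcmr and 26.0 (11.0 to 80.5) for Fcer2a, whose wide interval comes from the 5 UMIs.

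Survival and T-cell help are served by members of the tumour necrosis factor receptor family. Tnfrsf13c encodes the BAFF receptor, which carries the main survival signal of mature B cells. The gene lies on chromosome 15 from 82221743 to 82224369. It was counted at 64.1 CPM without a contig, 66.1 with IGH only, 238 with IGH plus IGK and 171 with IGH plus IGL. Cd40, on chromosome 2 from 165055627 to 165072948, encodes the receptor for CD40 ligand of helper T cells. Its levels were 17.7, 16.1, 71.9 and 46.7 CPM in the same order. For both genes the intervals of the first 2 states overlapped, and the IGH plus IGK to IGH ratios were 3.60 (3.32 to 3.91) and 4.46 (3.80 to 5.27).

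**Figure D1:**
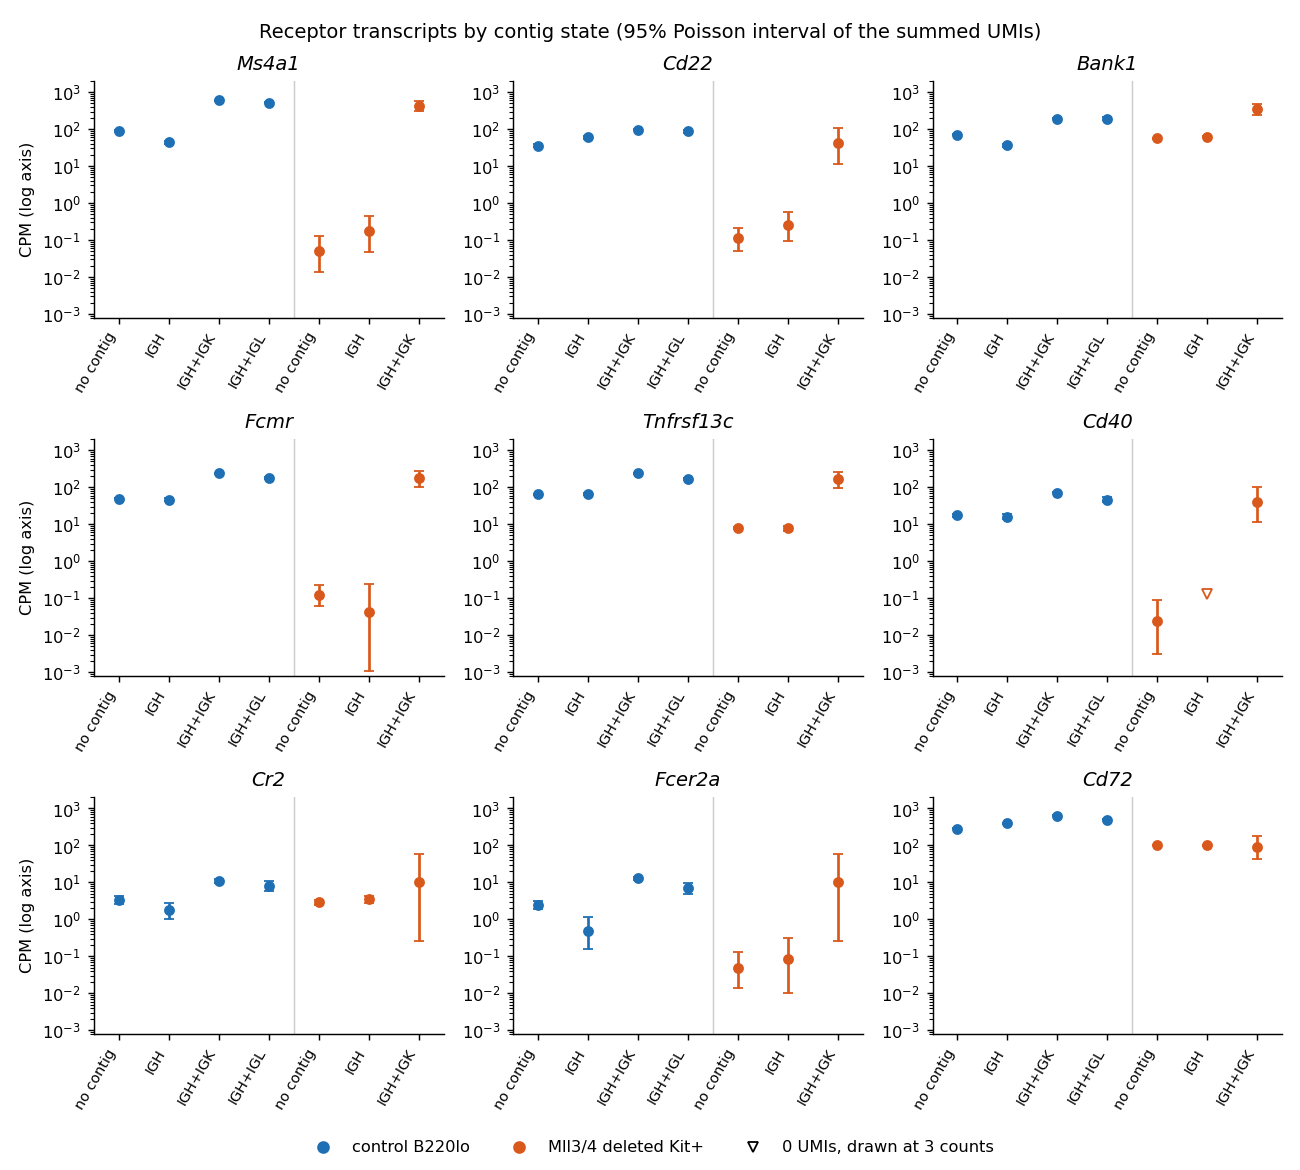
Level of each of the 9 genes in CPM on a log axis, by contig state, in control B220lo (blue) and Mll3/4 deleted Kit+ cells (orange), with 95% Poisson intervals; 0 UMIs is drawn as an open triangle at 3 counts. In B220lo cells 7 of the 9 genes are at least 2-fold higher with IGH plus IGK than with IGH only, and in deleted cells Ms4a1, Cd22, Fcmr, Cd40 and Fcer2a lie near 0 without a contig and with IGH only.

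A gene was called at a CPM ratio of 2 or more, with 1 CPM added to each side, when it had at least 100 UMIs in either state. By this rule 7 of the 9 genes were higher with IGH plus IGK than with IGH only and 0 were lower, where 5.21% of 10440 genes were higher and 0.967% lower. The uncalled members were Cd22 and Cd72. The median log2 ratio was 2.12 over the members and -0.017 over all genes tested. Leaving out cells whose heavy chain carried an alpha, epsilon or gamma constant gene, an alternative chosen after seeing the data, left Ms4a1 at a ratio of 14.7 and Cd22 at 1.75. The plasma cell list of Jchain, Xbp1, Sdc1, Prdm1 and Irf4 moved along the same step, from 338 CPM with IGH only to 3666 CPM with IGH plus IGK, led by Jchain at 3271 CPM. Other lists moved along it too: granulocyte from 1745 to 3169 CPM, plasmacytoid dendritic from 184 to 362, monocyte or macrophage from 202 to 423, NK or T from 35.3 to 57.5, basophil or mast from 1.78 to 32.7, and erythroid from 431 down to 119 CPM. Beyond leaving out cells with an alpha, epsilon or gamma constant gene, the part of these lists in the ratios was not tested.

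Lambda cells stood below kappa cells in CPM for most members. None of the 9 passed 2-fold between IGH plus IGL and IGH plus IGK, where 0.259% of 10440 genes were higher and 1.45% lower. The ratios ran from 0.546 (0.372 to 0.779) for Fcer2a to 1.01 (0.945 to 1.09) for Bank1. Cd40 stood at 0.651 (0.564 to 0.747), Tnfrsf13c at 0.719 (0.667 to 0.773), Fcmr at 0.729 (0.677 to 0.783) and Ms4a1 at 0.873 (0.837 to 0.910). The intervals of Bank1, Cd22 and Cr2 included 1. In the shares of cells at equal depth, described below, Ms4a1 and Bank1 stood higher in lambda than in kappa cells and the other members lower. The median log2 ratio was -0.42 over members and 0.015 over all genes, while the 10 cycling genes had a median of 0.28.

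Between B220lo cells with IGH only and those without a contig, 7 members could be called and 0 passed 2-fold with 1 CPM added, against 0.525% higher and 10.4% lower of 10848 genes. Ms4a1 came nearest at a log2 ratio of -0.99. Without the added 1 CPM its ratio was 0.496 (0.447 to 0.550). Its log2 ratio passed the threshold when doublets were kept (-1.09) or only deeper cells were taken (-1.16). As a mean of per-cell CPM it stood at -0.42. Bank1 had a ratio of 0.514 (0.458 to 0.575). Fcmr, Tnfrsf13c and Cd40 had ratios of 0.928, 1.03 and 0.912, whose intervals included 1. Fcer2a, with 5 and 61 UMIs, could not be called, and its ratio was 0.197 (0.0617 to 0.485). Cells without a contig were a mixed group: the granulocyte list summed to 9392 CPM and the plasmacytoid dendritic list to 1992 CPM there, against 1745 and 184 CPM with IGH only, and their part was not tested.

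Within these states the members' levels differed with cycling and with early transcripts. Cells with a UMI of Mki67 or Top2a are called cycling here. With IGH only, Ms4a1 was 20.4 CPM in 914 cycling and 133 CPM in 817 other cells, Bank1 18.2 and 104 CPM, Fcmr 18.5 and 148 CPM, and Cd40 6.28 and 52.1 CPM. Cd22 did not share this split, at 60.8 and 58.1 CPM. With IGH plus IGK, Ms4a1 was 366 CPM in 2009 cycling and 882 CPM in 3349 other cells. Cells with UMIs of at least 2 of Dntt, Vpreb1 and Igll1, the enzyme and surrogate light chain of early B cells, are called early. Among IGH only cells, 393 early cells had 9.52 CPM of Ms4a1 and 9.34 CPM of Bank1, and 1338 others had 83.9 and 67.3 CPM. Cd22 ran the other way, at 73.4 CPM in the early and 45.5 CPM in the other cells. Without a contig, 1193 early cells held 127 of the 2181 Ms4a1 UMIs, at 14.4 CPM, and 7 of the 61 Fcer2a UMIs. Every member stood lower in these early cells than over all B220lo cells without a contig. Depth moved with both splits: with IGH only, the median was 6390 UMIs in cycling and 2431 in other cells, and 11443 in early and 2667.5 in other cells.

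The share of cells with a UMI was compared at equal depth, with each cell thinned to 1000 UMIs. Ms4a1 was then seen in 8.05% of B220lo cells without a contig, 6.53% with IGH only, 34.8% with IGH plus IGK and 36.5% with IGH plus IGL. Cd72 was seen in 29.0%, 35.9%, 47.9% and 43.3%, which of the 9 was the course with the smallest ratio of highest to lowest share. At least 1 of the 9 was seen in 43.4%, 52.9%, 73.6% and 74.5% of these cells. Without thinning, those shares were 77.0%, 90.01%, 93.9% and 93.6%. In 363 B220lo cells with NK or T transcripts, which should lack most of the genes, the share with any member was 14.6% after thinning. Without thinning that share was 47.9%. The median depth before thinning was 4769 UMIs there and 3123 UMIs with IGH plus IGK. Most of the thinned share was Cd72, at 11.0%, while Ms4a1 was at 0.826%. Fcmr, Cd40 and Fcer2a were at 0 of 363 thinned cells, which allows up to 0.826% with 0 read as 3 counts. In 692 cells with plasmacytoid dendritic transcripts Cd72 was at 15.3%.

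**Figure D2:**
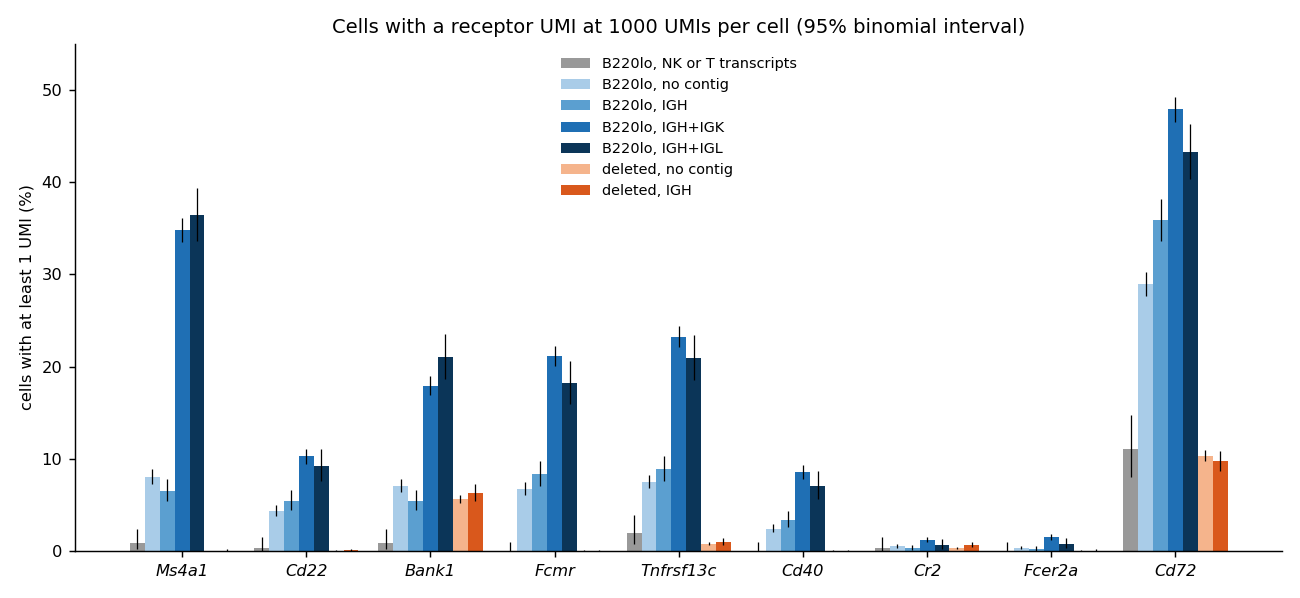
Percent of cells with at least 1 UMI of each gene after thinning every cell to 1000 UMIs, by library and contig state, with exact 95% binomial intervals; grey bars are B220lo cells with NK or T transcripts. Ms4a1 is at 34.8% and 36.5% in the light-chain states and at 8.05% or lower in the others, and Cd72 is the member with the highest grey bar, at 11.0%.

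The members were also found together in single cells. With IGH plus IGK, thinned cells with an Ms4a1 UMI had Bank1 in 35.3%, Fcmr in 37.7% and Tnfrsf13c in 39.6%, against 8.65%, 12.3% and 14.5% of cells without one. Cd22 was in 16.4% and 7.01%, and Cd72 in 58.1% and 42.5%. With IGH only, 113 cells had an Ms4a1 UMI, and Bank1 was in 23.0% of them and in 4.203% of the other 1618. Cells of 1 state share a library, and these shares describe them without a test. In the 4 B220lo states the most members seen in 1 thinned cell was 7, in 4 IGH plus IGK cells and in 2 cells without a contig. Exactly 3 were seen in 14.3% of IGH plus IGK cells, and in 3 of 2995 deleted cells with IGH only. Thinning is a random draw, and counts of so few cells depend on that draw.

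**Figure D3:**
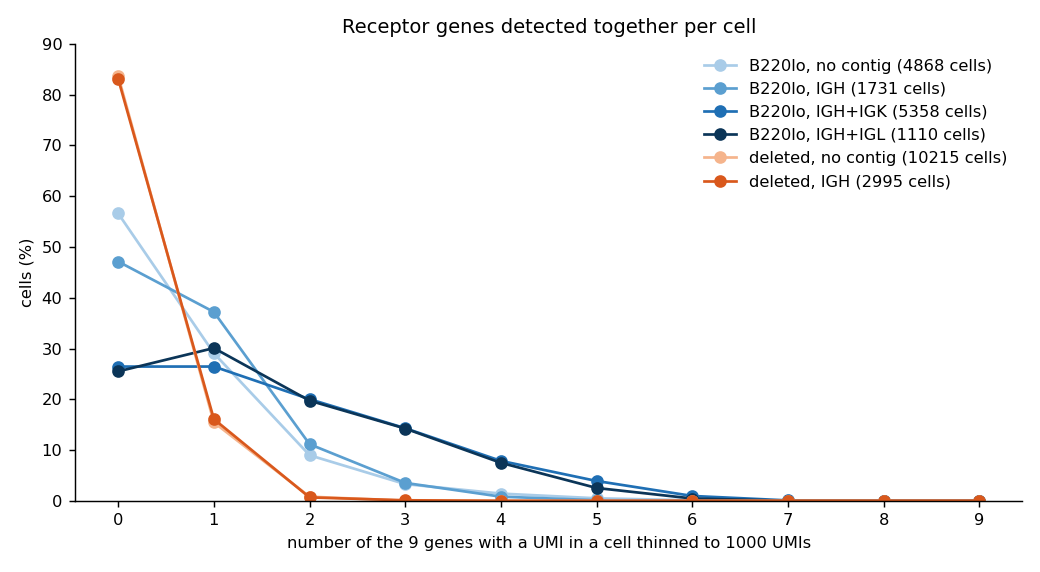
Percent of cells by the number of the 9 genes with a UMI after thinning to 1000 UMIs, for 4 B220lo and 2 deleted states. Deleted cells without a contig and with IGH only have 0 of the genes in 83.7% and 83.1% of cells, and B220lo cells with IGH plus IGK have 0 in 26.4%.

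The constant gene of the heavy chain contig separated B220lo cells with heavy and light chains further. IGHM was listed for 5985 of them, IGHD for 63 and IGHA for 219. Ms4a1 stood at 646 CPM (637 to 656) with IGHM, 820.3 CPM (704 to 950.1) with IGHD and 53.2 CPM (44.6 to 62.9) with IGHA. Fcer2a stood at 83.0 CPM (18 UMIs) with IGHD against 12.2 CPM with IGHM, and Cr2 at 46.1 CPM (10 UMIs) against 11.1 CPM. Bank1 stood at 691 against 205 CPM, Fcmr at 636 against 252 CPM and Cd22 at 194 against 103 CPM. For these 6 genes, Ms4a1 among them, the IGHD interval lay above that of IGHM, as it did for 5.03% of 10471 genes, and 0 members lay below, against 3.83%. Cycling and early transcripts differed between the same cells, with Mki67 at 198 against 486 CPM and Igll1 at 92.2 against 309 CPM, and their part was not tested. The intervals of Cd40, Tnfrsf13c and Cd72 did overlap, at 92.2, 235 and 627 CPM with IGHD and 74.2, 248.9 and 677 CPM with IGHM. In IGHA cells the intervals of all 9 lay below those of IGHM cells, with Cd22 at 13.4, Fcmr at 16.5 and Cd72 at 99.6 CPM, but so did those of 67.7% of 10486 genes, and 6.31% lay above. The median log2 ratio was -2.86 over the members and -0.79 over all genes. On a total without immunoglobulin segments and Jchain, an alternative chosen after seeing the data, 8 of 9 members lay below, Cr2 being the exception, against 21.5% of 10290 genes, and the medians were -2.19 and -0.12. The IGHA cells carried Jchain, a joining chain of secreted antibody, at 33155 CPM, against 82.5 CPM with IGHM, and had a median of 8163 UMIs against 3037.

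**Figure D4:**
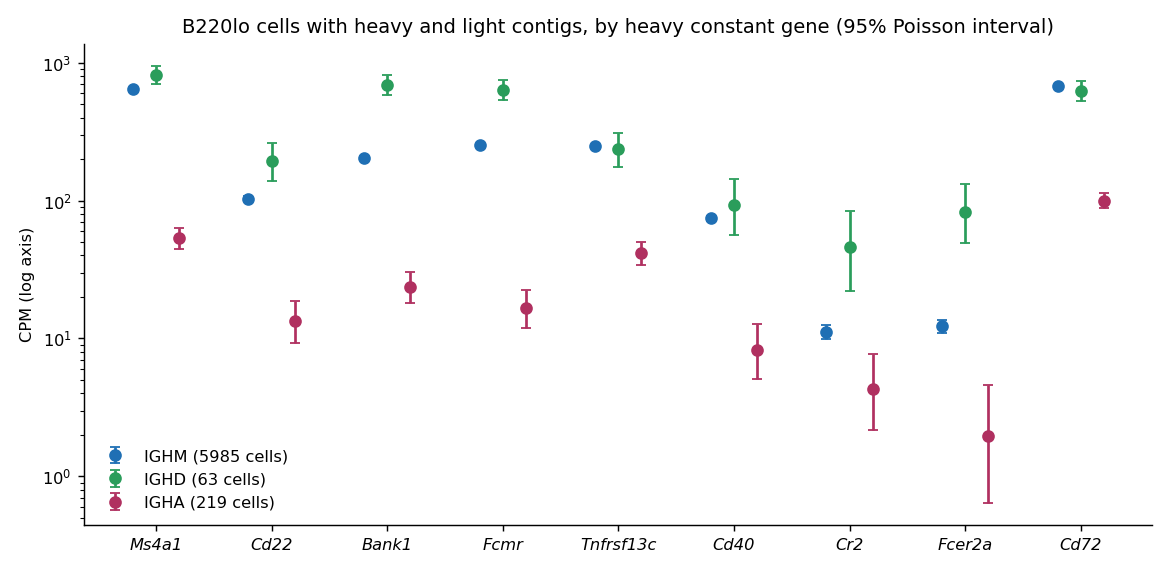
Level of each gene in CPM on a log axis in B220lo cells with heavy and light contigs, by constant gene of the heavy contig, with 95% Poisson intervals. The IGHA points of all 9 genes lie below those of IGHM on this scale, as 67.7% of all genes do with intervals that do not overlap, and the IGHD points of Ms4a1, Cd22, Bank1, Fcmr, Cr2 and Fcer2a lie above those of IGHM.

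In the deleted library the members split into those that were counted and those near 0. Ms4a1 had 4 UMIs in 10215 cells without a contig and 4 in 2995 cells with IGH only. Cd22 had 9 and 6 UMIs, Fcmr 10 and 1, Fcer2a 4 and 2, and Cd40 2 and 0, which allows up to 0.129 CPM. Bank1 was counted at 56.9 CPM (55.3 to 58.6) and 63.0 CPM (59.8 to 66.3), Cd72 at 103 and 101 CPM, Tnfrsf13c at 8.001 and 7.72 CPM, and Cr2 at 2.89 (231 UMIs) and 3.47 CPM (81 UMIs). Between these states 4 members could be called and 0 passed 2-fold, where 0.228% of 12265 genes were higher and 0.807% lower. Their ratios of IGH only to no contig ran from 0.965 (0.813 to 1.14) for Tnfrsf13c to 1.20 (0.922 to 1.56) for Cr2. At equal depth Bank1 was seen in 5.65% and 6.31% of these cells and Cd72 in 10.3% and 9.72%, against 0.397% and 0.992% of 504 deleted cells with neither contig nor B-lineage transcripts. After the same thinning, both were seen in 0 of the 361 of those with granulocyte transcripts, which allows up to 0.831% with 0 read as 3 counts. Before thinning these 361 cells had a median of 16576 UMIs, and 11.9% of them had a UMI of any of the 9 members. Cycling cells with IGH only had 58.3 CPM of Bank1 and 93.6 CPM of Cd72, against 76.1 and 120.03 CPM in the others.

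Against B220lo cells without a contig, deleted cells in the same state had 6 of 8 callable members lower and 0 higher, where 13.6% of 12798 genes were lower and 10.7% higher. Ms4a1 was 1795-fold lower (699.9 to 6593), Fcmr 398-fold (216 to 833), Cd22 320.4-fold (168 to 703) and Cd40, with 2 UMIs, 706-fold (194 to 5849). Tnfrsf13c was 8.01-fold lower and Cd72 2.74-fold. Bank1 at a ratio of 0.798 (0.755 to 0.844) and Cr2 at 0.856 (0.663 to 1.12) were not called. The median log2 ratio was -3.52 over the members and -0.051 over all genes.

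With IGH only on both sides, 6 of 7 callable members were lower in deleted cells and 0 higher, where 8.83% of 10717 genes were lower and 14.9% higher. Ms4a1 was 259.7-fold lower (101 to 957), Cd22 234-fold (107 to 641), Tnfrsf13c 8.56-fold (7.25 to 10.2) and Cd72 3.91-fold (3.72 to 4.12). Fcmr had 1 UMI against 468, a ratio of 1078 (193 to 42673), and Cd40 had 0 against 163 and was at least 125-fold lower with 0 read as 3 counts over the group, or 101-fold at the exact 95% limit. Bank1 stood at 63.0 against 36.6 CPM, a ratio of 1.72 (1.53 to 1.93) in favour of deleted cells. Cr2, too scarce to be called, stood at 3.47 against 1.78 CPM, a ratio of 1.95 (1.16 to 3.46). Fcer2a had 2 and 5 UMIs.

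The summed marker lists of other cell types stood lower in the deleted cells of both states. Without a contig, the granulocyte list had UMIs of 8 of 8 genes and summed to 3606 CPM in deleted against 9392 CPM in B220lo cells. The plasmacytoid dendritic list had 3 of 5 genes against 5 of 5 and summed to 115 against 1992 CPM, and the NK or T list had 4 of 7 against 7 of 7 and summed to 46.8 against 386 CPM. The monocyte or macrophage list summed to 73.4 against 795 CPM, the erythroid list to 56.3 against 476 CPM, the basophil or mast list to 3.18 against 47.1 CPM and the plasma cell list to 103 against 436 CPM. With IGH only the granulocyte lists lay closer, at 1643 against 1745 CPM, and the plasma cell list stood at 119.7 against 338 CPM, although Xbp1 of that list was higher in deleted cells, at 109 against 37.9 CPM. The part of such cells in the comparisons was not tested.

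Nearly all deleted cells were early by the rule above, 9942 of 10215 without a contig and 2986 of 2995 with IGH only, against 1193 of 4868 and 393 of 1731 B220lo cells. The comparison was therefore repeated among early cells alone, an alternative chosen after seeing the data. Without a contig, Ms4a1 was then 274-fold and Cd22 285-fold lower in deleted cells, Fcmr 85.4-fold (398 in all cells), Cd40, with 2 UMIs, 186-fold (706 in all cells), Tnfrsf13c 4.61-fold and Cd72 2.07-fold. Each was below its value among all cells, though the intervals of Ms4a1, Cd22 and Cd40 overlapped between both settings. Fcmr and Cd40 had too few UMIs to be called among these early cells. Bank1 turned direction, to a ratio of 2.61 (2.27 to 3.02) in favour of deleted cells, where 10.7% of 12276 genes were called higher and 8.3% lower. With IGH only, Bank1 reached 6.73 (5.08 to 9.11) and Cr2 2.33 (1.13 to 5.58), while Cd22 was 285-fold lower (129.7 to 781) at 6 against 393 UMIs. Ms4a1, with 2 UMIs, was 111-fold lower (29.2 to 940.3) and Fcmr, with 1 UMI, 209-fold (35.7 to 8413), against 259.7 and 1078 in all cells. Tnfrsf13c was 4.47-fold and Cd72 3.40-fold lower, and Cd40 had 0 against 14 UMIs. There 16.8% of 10540 genes were higher and 6.12% lower, and Ms4a1, Fcmr, Cd40, Cr2 and Fcer2a had too few UMIs to be called. The early cells of the libraries still differed: with IGH only, Dntt stood at 1340.3 CPM in deleted and 36.2 CPM in B220lo cells, Igll1 at 2582 and 1102 CPM, and the median depth at 6357 and 11443 UMIs.

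**Figure D5:**
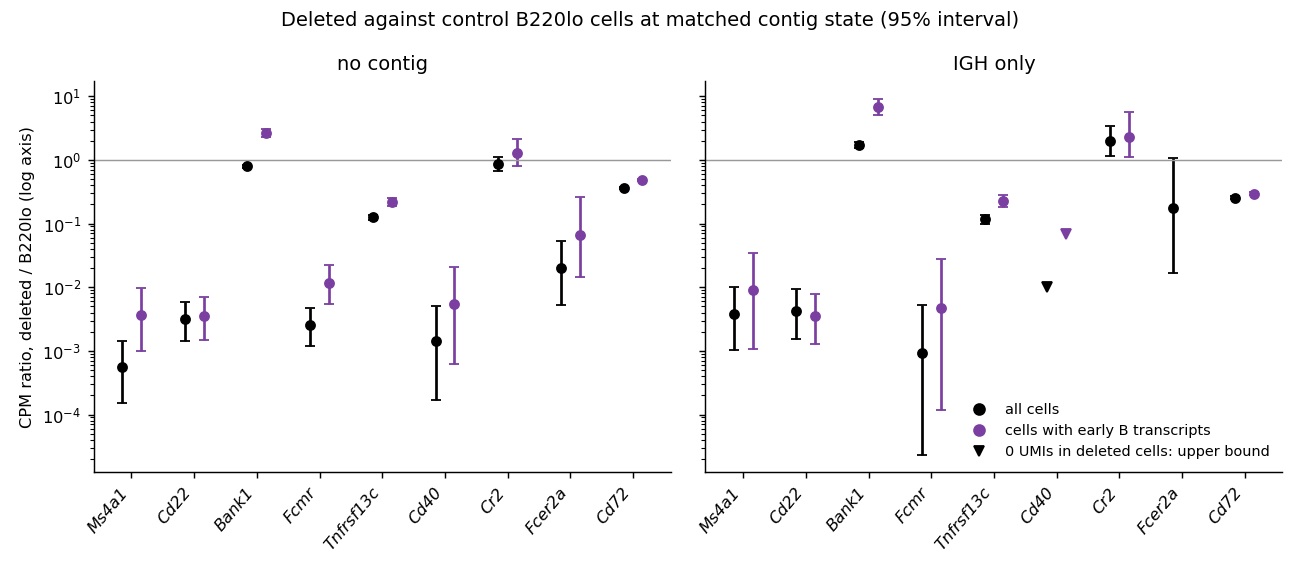
Ratio of CPM in deleted over control B220lo cells on a log axis for each gene, without a contig (left) and with IGH only (right), for all cells (black) and early cells (purple), with 95% intervals; triangles are exact 95% upper limits where deleted cells had 0 UMIs. Bank1 is the member above 1 in both early comparisons with an interval that excludes 1, and Ms4a1, Cd22, Fcmr and Cd40 lie below 0.1. A ratio is left out where both sides have at most 3 UMIs or B220lo cells have 0.

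Deleted cells with IGH only fell into clones, groups that share the nucleotide sequence of the heavy chain's CDR3: 560 distinct sequences in 2995 cells, against 1727 in 1731 B220lo cells. The 13 clones of at least 50 cells held 1798 cells. Bank1 ranged from 48.2 to 96.1 CPM across them, Cd72 from 57.8 to 120 CPM, Tnfrsf13c from 2.53 to 11.9 CPM and Cr2 from 0 to 7.53 CPM. Fcmr, Cd40 and Fcer2a had 0 UMIs in each of the 13, and Ms4a1 and Cd22 had 1 UMI in 1 clone each. Cells of a clone were taken to descend from 1 cell, which was not tested, and are not replicates. Over the 2192 cells in clones of at least 10, Bank1 was 65.0 CPM and Cr2 4.10 CPM, against 58.2 and 1.93 CPM in the other 803.

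A light chain contig was listed for 33 kept deleted cells. The 16 with IGH plus IGK had 42 UMIs of Ms4a1 (431 CPM), 34 of Bank1 (349 CPM), 17 of Fcmr, 16 of Tnfrsf13c and 4 of Cd40, too few cells for a comparison. Of the 33, 9 were not early, and Ms4a1 was in 7 of them at 25 UMIs, Fcmr in 6 at 28 UMIs and Bank1 in 6 at 28 UMIs. Y-linked transcripts were found in 5 of those 9 cells at 291 CPM, and the B220lo library as a whole had 0.515 CPM. In the 24 early cells Ms4a1 had 28 UMIs in 5 cells, and Y-linked transcripts stood at 163 CPM.

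Genes that act with the members were read from lists chosen by function. All gene lists here were chosen with earlier results of these data known. Of 20 signalling partners, 3 were higher with IGH plus IGK than with IGH only in B220lo cells and 0 lower, against 5.21% and 0.967% of all genes, with a median log2 ratio of 0.31. They were Ptpn6, the phosphatase recruited by CD22 and CD72, at 366 against 149 CPM, Nfkb2, at 49.9 against 23.3 CPM, and Tnfrsf17, a receptor for BAFF and APRIL on plasma cells, with 445 against 2 UMIs. Cd81 and Traf6 had the lowest ratios, 0.885 and 0.924. Between deleted and B220lo cells with IGH only, 12 of 19 callable partners were lower and 0 higher, where 8.83% of all genes were lower and 14.9% higher. Lyn stood at 36.1 against 407 CPM, Syk at 38.2 against 502 CPM and Ptpn6 at 15.1 against 149 CPM, kinases and a phosphatase of the antigen receptor. Blk, a kinase of the B lineage, had 2 against 2027 UMIs, a ratio of 0.000428 (5.18e-05 to 0.00155). Blnk, an adaptor of the pre-B receptor, was not among the lower genes, at 946 against 480.2 CPM.

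Of 20 other surface genes of maturing B cells, 9 were higher with IGH plus IGK than with IGH only and 0 lower, against 5.21% and 0.967% of all genes, with a median log2 ratio of 0.86. Cd83, an activation marker, was highest at a ratio of 16.6 (10.5 to 28.2). Cxcr5, the follicle homing receptor, and Cd74, the invariant chain of MHC class II, had ratios of 6.20 and 6.19, and Cd74 stood at 3827 against 618 CPM. Ccr7, a homing receptor, had the lowest ratio of the list, 1.04. In deleted against B220lo cells with IGH only, 10 of 16 callable genes of this list were lower and 0 higher, against the same 8.83% lower and 14.9% higher of all genes, Cd74 with 45 UMIs at 1.93 CPM among them. H2-Ab1, a class II chain, was not, at 211 against 204 CPM. The shares of 5.21% higher and 0.967% lower also stand beside the next counts, of IGH plus IGK against IGH only. Of 15 early genes, Igll1 and Vpreb2 of the surrogate light chain were lower, at ratios of 0.459 and 0.470, and Kit and Flt3 were higher, at 2.43 and 2.53 from low levels of 2.67 and 4.64 CPM. Of 10 cycling genes 6 were lower, with Ccnb1 and Cdk1 at the lowest ratios, 0.452 and 0.454, and 4 were not called, with Hist1h1b and Pcna at the highest ratios, 0.515 and 0.542.

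Likeness to the members was measured as the Pearson correlation of log2(CPM + 1) with the mean of the 9 members, over the 13 library and contig states of at least 50 cells. Members, immunoglobulin segments, unnamed gene models and genes below 100 UMIs in every state were left out of the ranking. The 5 highest were Rasgrp3 at 0.995, Scd1 at 0.994, Eaf2 at 0.993, Dusp10 at 0.992 and Ell3 at 0.988. The states share 4 libraries and their depths, so these values are a description. Scd1, for example, stood at 24.7 CPM with IGH only and 72.0 CPM with IGH plus IGK in B220lo cells, and at 2.50 and 2.92 CPM in deleted cells without a contig and with IGH only. Among the members themselves, Tnfrsf13c was nearest to the mean at 0.991 and Fcer2a farthest at 0.819. Each member is part of that mean, which raises its own value.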

How the data were processed

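Per the labels, 1 10x Genomics 5′ version 2 library was made for each of 4 groups, and the submitters' processing notes name Cell Ranger 7.1.0 and mm10. The deposited matrices hold UMI counts per gene and barcode, not normalized by the authors, and deposited contig tables list the immunoglobulin chains of each barcode. Totals ran from 85445426 to 166327773 UMIs.

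Barcodes with at least 1000 UMIs, 500 genes and at most 10% mitochondrial UMIs were kept. Doublets were scored with Scrublet in scanpy 1.11.5 (expected share 8%). Its own threshold marked 0, 0 and 1 barcodes in the deleted, B220lo and SI libraries and so had not worked there, and a score of 0.25 or more, a value known from earlier work on these data, removed 1168 deleted and 949 B220lo barcodes. UMIs were summed per library and contig state and given as CPM, on the total of all UMIs of the state. Contig states rest on every listed contig. Levels were not compared between genes, since 5′ counts were not scaled by length. Level intervals are exact Poisson, ratio intervals exact conditional and share intervals exact binomial, all at 95%. A count of 0 is read against a floor of 3 counts, which is not the upper end of those intervals. UMIs need not be independent between cells, and no interval covers the spread between animals.

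Log2 ratios carry 1 CPM, which understates changes of low genes. The call rule was tested on simulated counts. The members, lists and markers were chosen with earlier results of these data known. Named genes are all 9 members, the 2 highest and 2 lowest ratios of each list between B220lo IGH plus IGK and IGH only (ranked with 1 CPM added), and the 5 genes most like the members' mean. Further genes of the lists were named after their values were seen. Comparisons of deleted IGH plus IGK cells were not made, since 16 cells are under the minimum of 50. Background cells had at least 3 markers of another lineage and fewer than 2 B-lineage markers. Alternatives changed the cell filter, doublets, contig support, pseudocount, minimum count, total, state rule and thinning depth. Some genes of the lists are not reported here.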

Additional observations from a re-analysis of the deposited data

Results flagged for a closer look

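Cd40 was found in data outside the comparisons above, in SI Kit+ cells that had neither a contig nor B-lineage transcripts. It stood there at 1.07 CPM, with 161 UMIs in 80 cells, above the 1 UMI of control Kit+ cells in the same state, a ratio of 149 (26.3 to 5910.1). Of the 80 cells, 34 had at least 2 UMIs and the highest had 8. The monocyte or macrophage list summed to 21775 CPM in the 80 cells, led by Lyz2 at 20102 CPM, and to 491 CPM in the other 11374, and the granulocyte list to 2934 and 21639 CPM. Of the 6 B-lineage markers 1, Cd79b, had UMIs in the 80 cells, each of which was selected to have fewer than 2 of these markers. The 80 cells were taken for having a Cd40 UMI, so they hold all 161 UMIs by definition. What accounts for Cd40 in them was not tested.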

How the results depend on the processing

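Of 134 recomputed counts of called members, 125 stayed within 1.5 times the value given and 9 did not, and of 603 recomputed ratios 468 stayed within their counting interval, 135 moved beyond it and 0 of the called ones reversed. The 9 were as follows. For B220lo IGH only against no contig, 1 member was lower with doublets kept, with the stricter cell filter, with at least 20 UMIs and with no minimum, 2 were lower when 3 B-lineage markers were required, and 1 was higher when all cells without a contig were taken; 0 were called otherwise. The lower gene was Ms4a1 in the first pair and Fcer2a under the lower minimums, Bank1 joined Ms4a1 with 3 markers, and the higher gene was Cd22. With the processing used above, 0.525% of 10848 genes were higher and 10.4% lower in this comparison. These counts of members are not read as a result. Among early cells, 1 member, Bank1, was higher in deleted cells without a contig, and with IGH only 1 was higher and 3 lower of 4 callable, fewer because fewer B220lo cells were left. In B220lo IGH only against no contig, Fcmr and Cd40, which were not called, changed sign as a mean of per-cell CPM (log2 ratios 0.29 and 0.16) and with all cells without a contig (0.29 and 0.25). Shares of cells with any member rise with depth. At 2000 UMIs and without thinning they were 56.9% and 77.0% (no contig), 74.8% and 90.01% (IGH), 86.6% and 93.9% (IGH plus IGK) and 86.5% and 93.6% (IGH plus IGL) in B220lo cells, and 29.1% and 60.6% (no contig) and 29.8% and 62.0% (IGH) in deleted cells. No paired analysis was possible because each group had 1 library, and for the same reason no replicate could be left out. Depth limits members with few UMIs, and 0 UMIs of Cd40 is a limit of detection.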

Other observations

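In Kit+ cells without a contig or B-lineage transcripts every member but Ms4a1 was counted in both control and SI libraries, and Ms4a1 in SI cells only. Tnfrsf13c was counted at 1.03 CPM in control and 1.15 CPM in SI cells, Bank1 at 0.525 and 0.552 CPM, and Cr2 at 0.972 and 0.951 CPM, with ratio intervals that included 1 for each. Cd22 had 5 UMIs in control and 7 in SI cells, Fcmr 3 in each, and Fcer2a 11 and 8. Cd72 was counted at 15.3 CPM in control and 11.1 CPM in SI cells, a ratio of 0.723 (0.677 to 0.771). Ms4a1 had 0 UMIs in the 10986 control and 4 in the 11454 SI cells.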
